A study of Mus musculus with 6 samples.

Results

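Fbp1, Khdc1a, Mpzl2, Cdh23, B4galnt2, Myl10, Vwce, Capn5 and Uaca are 9 of the 19937 genes measured on these arrays, chosen because their signal was among the furthest below that of fresh thymocytes after 40 h of anti-CD3 culture. Their falls from the fresh cells are therefore the basis of the choice and are given as a description without a test. The samples were Thy1.2+ cells of E17.5 Rag1-/- mouse fetal thymi on 6 arrays. In the 79-6 group (n = 2) stimulation lasted 40 h with anti-CD3 and 50 µM 79-6, an inhibitor of the transcriptional repressor Bcl6; in the DMSO group (n = 2) it lasted 40 h with anti-CD3 and the vehicle DMSO; the fresh group (n = 2) was taken at 0 h without culture. The series design describes the stimulated material as organ cultures of fetal thymus, from which the cells were purified afterwards. All groups lack Rag1, so no T cell receptor gene is rearranged and thymocytes halt at the double-negative 3 (DN3) stage; antibody to CD3 then stands in for the missing pre-T cell receptor signal. No group was cultured without anti-CD3. A difference from fresh cells therefore holds anti-CD3, 40 h of culture, the added 79-6 or DMSO and purification after culture together. Their separate parts were not tested. The labels do not say whether replicates are separate litters or cultures. A p-value here sets a difference against the spread between arrays, which may be technical, and 2 arrays a group limit the precision.

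Loss of early-stage transcripts is a known part of beta-selection, the checkpoint at which a signal through the pre-T cell receptor moves DN3 thymocytes on to proliferation and the double-positive stage. Whether such a signal lowered the genes described here was not tested, since no group was cultured without the antibody. The 9 genes do not belong to 1 pathway. They encode a metabolic enzyme (Fbp1), a glycosyltransferase (B4galnt2), surface adhesion proteins (Mpzl2 and Cdh23), a secreted protein (Vwce), a myosin light chain (Myl10), a protease (Capn5), an apoptosome-associated protein (Uaca) and a KH-domain protein (Khdc1a).

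Arrays differed in genes of the sex chromosomes, which were looked at after their values were seen. Xist, the X-inactivation RNA, read 5.71 and 11.95 in 79-6, 13.16 and 12.65 in DMSO, and 11.84 and 13.01 in fresh cells (log2 intensity). The Y-linked gene Uty read 9.61 and 9.05 in 79-6, 6.78 and 8.77 in DMSO, and 9.63 and 8.45 in fresh cells. The array of 79-6 replicate 1 was thus low in Xist and that of DMSO replicate 1 low in Uty, and results are also given without each. The median difference of the 9 genes from fresh cells was -3.02 in 79-6 without 79-6 replicate 1, against -3.10 with it, and -3.21 in DMSO without DMSO replicate 1, against -3.20 with it. Thy1, the antigen of the purification, averaged 13.07 in 79-6, 13.23 in DMSO and 12.80 in fresh cells. Array medians over genes were 7.07 to 7.15. A high Thy1 value does not measure purity. Lyz2, the brightest macrophage and dendritic cell marker at 40 h, averaged 13.31 in 79-6, 13.06 in DMSO and 9.18 in fresh cells. Krt8, the brightest epithelial marker (named after its values were seen), averaged 10.50 in 79-6, 10.44 in DMSO and 11.79 in fresh cells.

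In the 79-6 arrays all 9 genes were below both fresh arrays, with log2 differences in RMA intensity between -2.81 (B4galnt2) and -5.83 (Fbp1) and a median of -3.10, against 0.05 over all genes. In the DMSO arrays all 9 were also below both fresh arrays, with log2 differences between -2.66 (Uaca) and -5.45 (Fbp1) and a median of -3.20, against 0.02 over all genes. Over all genes the 79-6 and fresh arrays did not overlap for 64.5% (36.8% higher and 27.7% lower in 79-6), and limma called 26.0% at an adjusted p under 0.05. The DMSO and fresh arrays did not overlap for 60.0% (31.9% higher and 28.1% lower in DMSO), and limma called 19.6%. Nothing is read from the 9 of 9, since the fall from fresh cells selected these genes. Both comparisons share the fresh arrays. On the fresh arrays none of the 9 genes was below the array's median over genes (log2 7.12 and 7.15). After 40 h 5 of them were below it on each 79-6 array and 4 on each DMSO array. No detection limit was used here, so these low values carry no bound. In these bulk samples fewer cells of a type and less RNA per cell cannot be told apart.

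**Figure D1:**
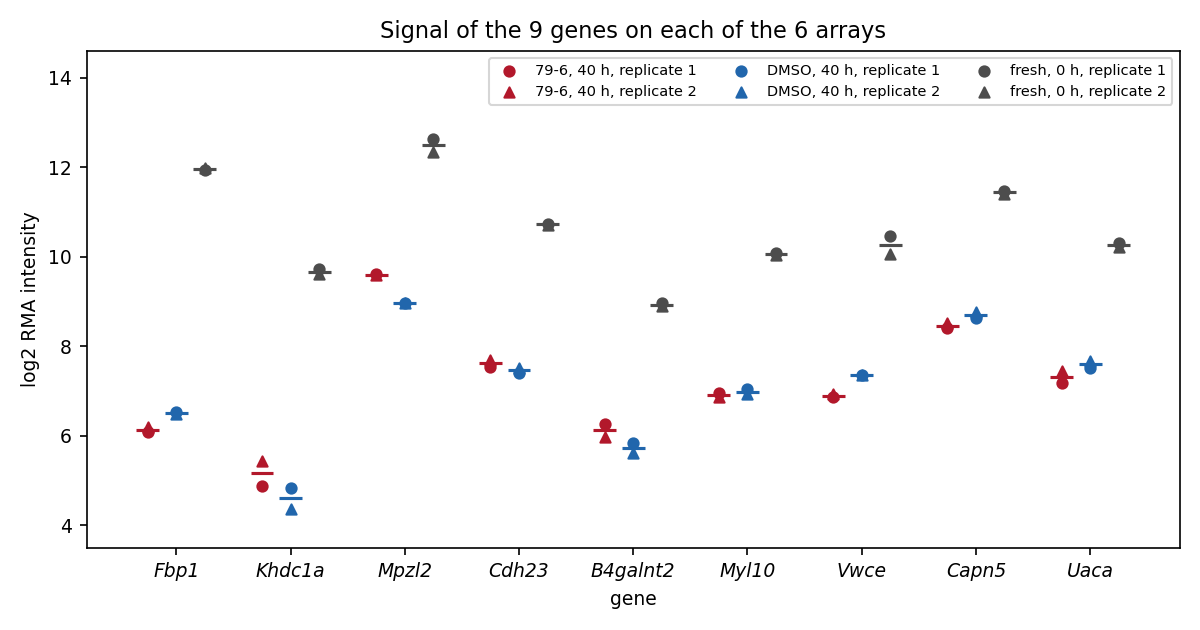
Log2 RMA intensity (y axis) of the 9 genes (x axis) on each array; circles are replicate 1, triangles replicate 2, and short bars the mean of the 2 arrays of a group (79-6 red, DMSO blue, fresh grey, from left to right for each gene). For every gene the 79-6 and DMSO arrays lie below the fresh arrays, and the distance is largest for Fbp1.

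RefSeq promoters (GRCm38.p6, 250 bases before to 50 after a start site) were found for 6 of the 9 genes: Fbp1, Cdh23, B4galnt2, Vwce and Uaca with 1 each and Myl10 with 3. They were searched on both strands for motifs of factors known in early T cells and of basal promoters. The letters were CANNTG for the E-box, TGGGAA for Rbpj (the DNA-binding partner of Notch), TGTGGT for Runx, AGATAA for the zinc finger factor Gata3, CTTTGA for Tcf and, for the basal promoter element, TATAAA. Matches did not overlap each other in these promoters. Shown are the promoters of Fbp1, of Uaca, of Myl10 at its first start site, and of B4galnt2. Fbp1 and Uaca had the largest and smallest fall of the 9 genes in DMSO against fresh cells. B4galnt2 held none of the motifs, and neither did Vwce or Myl10 at its second start site. Capitals mark motif matches.
Fbp1 (chr13:62888233-62888532, minus strand): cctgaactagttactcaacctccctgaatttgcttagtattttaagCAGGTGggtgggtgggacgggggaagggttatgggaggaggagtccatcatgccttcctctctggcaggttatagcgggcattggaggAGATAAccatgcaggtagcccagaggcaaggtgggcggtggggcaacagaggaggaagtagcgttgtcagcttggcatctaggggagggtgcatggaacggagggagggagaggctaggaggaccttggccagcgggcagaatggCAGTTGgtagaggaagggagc
Uaca (chr9:60794192-60794491, plus strand): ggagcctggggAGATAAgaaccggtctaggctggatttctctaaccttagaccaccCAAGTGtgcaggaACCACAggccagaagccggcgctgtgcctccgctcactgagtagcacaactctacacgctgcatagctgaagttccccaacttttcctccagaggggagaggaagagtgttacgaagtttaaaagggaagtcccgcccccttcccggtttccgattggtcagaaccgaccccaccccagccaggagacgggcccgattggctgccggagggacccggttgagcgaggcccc
Myl10 (chr5:136692896-136693195, plus strand): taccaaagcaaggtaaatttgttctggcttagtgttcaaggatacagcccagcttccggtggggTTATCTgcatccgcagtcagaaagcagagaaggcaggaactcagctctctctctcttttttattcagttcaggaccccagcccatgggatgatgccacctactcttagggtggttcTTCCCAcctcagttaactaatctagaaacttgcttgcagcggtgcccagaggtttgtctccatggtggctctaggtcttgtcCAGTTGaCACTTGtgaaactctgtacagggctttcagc
B4galnt2 (chr11:95914822-95915121, minus strand): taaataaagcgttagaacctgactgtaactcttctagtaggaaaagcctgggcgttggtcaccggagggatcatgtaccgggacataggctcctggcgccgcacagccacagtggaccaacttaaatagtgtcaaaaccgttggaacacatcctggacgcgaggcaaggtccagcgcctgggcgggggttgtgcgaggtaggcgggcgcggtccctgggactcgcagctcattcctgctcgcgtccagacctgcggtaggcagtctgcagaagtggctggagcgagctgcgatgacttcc
An E-box stood in 4 of the 8 promoters that RefSeq gives for these 6 genes (of Fbp1, Cdh23, Myl10 and Uaca), and 72.3% of all 32851 promoters of this length hold one. The Gata3 motif stood in 3 of the 8 (of Fbp1, Myl10 and Uaca), beside 11.2% of all promoters. The Rbpj motif stood in 2, both of Myl10 (25.6% of all), the Runx motif in 1, of Uaca (16.8% of all), and the Tcf motif in 1, of Myl10 at a start site not shown (16% of all). No TATAAA was found (13.6% of all promoters). A match describes letters in this window and does not show a bound site.

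Fbp1 encodes fructose bisphosphatase, the enzyme of gluconeogenesis that works against phosphofructokinase. Its log2 intensity (probe set 10410007) was 6.08 and 6.19 in 79-6, 6.53 and 6.49 in DMSO, and 11.95 and 11.97 in fresh cells. The 3 groups did not overlap, and the SD between replicates was at most 0.08. The signal was 56.7-fold lower in 79-6 and 43.6-fold lower in DMSO than in fresh cells, the largest fall of all genes in both comparisons. Fbp1 fell with 79-6 against DMSO by 0.38 ± 0.07 (log2 difference, SE; adjusted p = 0.0387, limma). That call held in none of the fits that left out 1 array. Both 79-6 arrays were below both DMSO arrays, as they were for 22.2% of all genes. Arrays of both groups took part in the choice of Fbp1. Of 16 measured genes of gluconeogenesis and fructose bisphosphate turnover, 2 rose and 2 fell in DMSO against fresh cells, and the list median was -0.03. Pfkp, a phosphofructokinase and so an opposing enzyme, rose by 1.46 (log2 change, adjusted p = 1.0e-04), and G6pc3, a glucose phosphatase, fell by 0.60 (adjusted p = 0.0021). Aldoa, an aldolase, rose by 0.40 (adjusted p = 0.0329). Of the 4 calls those of Pfkp and G6pc3 held with any 1 array left out, while those of Aldoa and Pcx, pyruvate carboxylase, were lost without fresh replicate 1 or either DMSO array and that of Pcx also without fresh replicate 2. The paralog Fbp2 changed by 0.04 (log2, adjusted p = 0.840). The other phosphofructokinase genes Pfkl and Pfkm (named after their values were seen) changed by 0.05 and -0.14 and were not called. In 79-6 against fresh cells Pfkm fell by 0.47 (adjusted p = 0.0041, limma) and Pfkl changed by -0.28 without a call. With 79-6 against DMSO, Pfkp fell by 0.47 (adjusted p = 0.0468), which held in none of the fits that left out 1 array, and 4 genes of the list were lower at an unadjusted p under 0.05. Against fresh cells 1 rose and 4 fell in 79-6, among them Pfkp (log2 change 0.996), G6pc3 (-0.78) and Pcx (-0.48), calls that held with any 1 array left out, and 2 rises were called without fresh replicate 2.

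B4galnt2 encodes the transferase that adds N-acetylgalactosamine to sialylated glycans to make the Sd(a) or Cad antigen. It read 6.27 and 5.97 in 79-6, 5.85 and 5.62 in DMSO, and 8.97 and 8.90 in fresh cells (log2 intensity, probe set 10390196). Both cultured groups lay below the fresh arrays without overlap, with 79-6 above DMSO. It was 7.01-fold lower in 79-6 and 9.20-fold lower in DMSO than in fresh cells. Among 15 GalNAc- and sialyltransferase genes 4 rose and 6 fell in DMSO against fresh cells, where 8.89% of all genes were called higher and 10.7% lower. B4galnt4 fell by 1.17 (log2, adjusted p = 7.5e-05). St6gal1, which adds sialic acid to N-glycans, rose by 2.19 (adjusted p = 2.7e-05), and St8sia1, the GD3 ganglioside synthase, by 1.05 (adjusted p = 1.1e-04). B4galnt1, the ganglioside enzyme closest in name, had a log2 difference of -0.03 (adjusted p = 0.881). The calls of B4galnt4, St6gal1 and St8sia1 held when any 1 array was left out, and leaving out DMSO replicate 1 or either fresh array gave 4 falls in place of 6. With 79-6 against DMSO, St8sia1 rose by 0.89 (log2, adjusted p = 0.0025), a call that held with any 1 array left out, and B4galnt4 by 0.35 (adjusted p = 0.0463), a call lost without any 1 of them. Set against fresh cells, 79-6 cells had 5 rises and 5 falls, led by St8sia1 (1.94), St6gal1 (1.80) and St8sia4, a polysialyltransferase (0.92). These counts were 3 and 4 without either fresh array or 79-6 replicate 2.

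Mpzl2, also called Eva1, is an immunoglobulin-type adhesion protein described in thymic epithelium and early thymocytes. It read 9.60 and 9.59 in 79-6, 8.98 and 8.98 in DMSO, and 12.63 and 12.35 in fresh cells (log2 intensity, probe set 10584827). The groups did not overlap; DMSO lay lowest and 79-6 between DMSO and fresh cells. The signal was 7.42-fold lower in 79-6 and 11.4-fold lower in DMSO than in fresh cells. Against DMSO, Mpzl2 rose with 79-6 by 0.62 ± 0.10 (log2 difference, SE; 1.54-fold, adjusted p = 0.0218, limma). That call was lost without either DMSO array or either 79-6 array, and arrays of both groups took part in the choice of Mpzl2. The paralogs Mpzl1 and Mpzl3 had log2 differences of -0.05 and -0.03 in DMSO against fresh cells and were not called. Jaml, a junctional adhesion protein of leukocytes, rose with 79-6 by 1.65 against DMSO (adjusted p = 8.4e-04) and by 1.66 against fresh cells (adjusted p = 5.6e-05), and held both calls with any 1 array left out.

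Cdh23 is the long cadherin known from the tip links of inner-ear hair cells. It read 7.54 and 7.70 in 79-6, 7.41 and 7.51 in DMSO, and 10.73 and 10.72 in fresh cells (log2 intensity, probe set 10369307). The groups did not overlap, and 79-6 was nearest to DMSO. It was 8.58-fold lower in 79-6 and 9.58-fold lower in DMSO than in fresh cells. Of 11 measured tip-link and Usher complex genes none was called by limma in DMSO against fresh cells (0 at an unadjusted p under 0.05) or in 79-6 against DMSO (2 at an unadjusted p under 0.05). Pdzd7, a scaffold of the Usher complex, rose in 79-6 against fresh cells (log2 change 0.30, adjusted p = 0.0372). That call was lost in 5 of the 6 fits that left out 1 array (all but that without 79-6 replicate 2). The tip-link partner of Cdh23, Pcdh15, had log2 differences of -0.03 in DMSO against fresh cells and 0.26 in 79-6 against DMSO, without a call (Pcdh15 was named after its values were seen).

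Myl10 encodes a myosin regulatory light chain first named for precursor lymphocytes. It read 6.95 and 6.86 in 79-6, 7.05 and 6.93 in DMSO, and 10.08 and 10.04 in fresh cells (log2 intensity, probe set 10526493). It is the 1 gene of the 9 whose 79-6 and DMSO arrays overlapped. The signal was 8.89-fold lower in 79-6 and 8.38-fold lower in DMSO than in fresh cells. Of 16 genes of myosin chains and light chain kinases 2 rose and 3 fell in DMSO against fresh cells. Myl4, a light chain of embryonic and atrial muscle, fell by 2.59 (log2, adjusted p = 1.6e-05), just less than the fall of Uaca. Myl4 rose with 79-6 against DMSO by 1.08 (log2, adjusted p = 0.0038), whereas Myl10 had a difference of -0.09 with a 95% interval of -0.27 to 0.10. Of the nonmuscle heavy chain genes, Myh10 fell by 0.43 (adjusted p = 0.0079) and Myh9 rose by 0.40 (adjusted p = 0.0070) in DMSO against fresh cells. Without fresh replicate 1 or DMSO replicate 1 both calls were lost, which left Myl4 as the single call of the list, and leaving out replicate 2 of either group gave 1 rise and 2 falls. With 79-6 against DMSO, Myh10 fell by 0.46 (adjusted p = 0.0259) and Myh9 rose by 0.34 (adjusted p = 0.0463). The first was lost without any 1 of the 4 arrays compared and the second without any 1 of the 6. In 79-6 against fresh cells 4 of the 16 rose and 3 fell, led by Myl4 (-1.51), Myh10 (-0.90) and Myh9 (0.74), which held with any 1 array left out.

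Capn5 is a calpain, a calcium-dependent cysteine protease, of the type without the calcium-binding domain that pairs with the small subunit. It read 8.41 and 8.51 in 79-6, 8.63 and 8.76 in DMSO, and 11.48 and 11.41 in fresh cells (log2 intensity, probe set 10565689). The arrays separated by group, 79-6 lowest and fresh highest. It was 7.93-fold lower in 79-6 and 6.74-fold lower in DMSO than in fresh cells. Of 14 genes of other calpains, small subunits and the inhibitor calpastatin 2 rose in DMSO against fresh cells and 0 fell (4 and 0 at an unadjusted p under 0.05 by limma). Cast, the calpastatin gene, rose by 0.56 (log2, adjusted p = 0.0026) and Capn1 by 0.32 (adjusted p = 0.0204), a call that was lost without either fresh or either DMSO array. By limma none was called in 79-6 against DMSO, where 5 were higher and 1 lower at an unadjusted p under 0.05. In 79-6 against fresh cells 4 rose, among them Cast (0.76), Capn1 (0.62) and Capn2 (0.46). They numbered 2 without fresh replicate 1 or 79-6 replicate 2 and 7 without 79-6 replicate 1.

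Uaca, or nucling, is an ankyrin-repeat and coiled-coil protein linked to the Apaf1 apoptosome. It read 7.19 and 7.44 in 79-6, 7.52 and 7.68 in DMSO, and 10.30 and 10.21 in fresh cells (log2 intensity, probe set 10586017). It was 7.69-fold lower in 79-6 and 6.30-fold lower in DMSO than in fresh cells, and the 79-6 arrays lay below the DMSO arrays. Of 7 measured apoptosome genes and Uaca partners 1 rose and 1 fell in DMSO against fresh cells. Apaf1, the apoptosome core, rose by 0.44 in DMSO against fresh cells (log2, adjusted p = 0.0043) and Diablo, which blocks caspase inhibitors, fell by 0.33 (adjusted p = 0.0442). The call of Diablo depended on every array of both groups, and that of Apaf1 held with any 1 array left out. Lgals3, galectin-3, was not called in DMSO against fresh cells and rose with 79-6 against DMSO by 1.34 (log2, adjusted p = 0.0103). That call was lost without either DMSO array or 79-6 replicate 2 (highest adjusted p = 0.0834). Compared with fresh cells, in 79-6 Lgals3 (1.60) and Apaf1 (0.38) rose and Diablo (-0.48) fell, the last call being lost without fresh replicate 2 (adjusted p = 0.0587).

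Vwce is a secreted protein with von Willebrand factor C and EGF domains. It read 6.86 and 6.94 in 79-6, 7.35 and 7.36 in DMSO, and 10.47 and 10.05 in fresh cells (log2 intensity, probe set 10461526). Again 79-6 was lowest and fresh highest, and no groups overlapped. It was 10.3-fold lower in 79-6 and 7.47-fold lower in DMSO than in fresh cells. Of 13 other genes with von Willebrand factor C domains 2 fell and 0 rose in DMSO against fresh cells by limma (2 and 0 at an unadjusted p under 0.05). These were Crim1, a membrane protein that binds bone morphogenetic proteins (log2 change -0.53, adjusted p = 0.0094), and Chrdl1, a secreted antagonist of the same ligands (-0.26, adjusted p = 0.0466). Chrdl1 lost its call without any 1 of the 6 arrays, and Crim1 without fresh replicate 1 or DMSO replicate 2. Crim1 rose with 79-6 against DMSO by 0.51 (adjusted p = 0.0379), a call lost without either DMSO array or 79-6 replicate 2. Vwf, von Willebrand factor itself, was the single call in 79-6 against fresh cells (0.29, adjusted p = 0.0479), lost in 5 of the 6 fits that left out 1 array.

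Khdc1a belongs to a mouse cluster of KH-domain genes known from eggs and early embryos. It read 4.89 and 5.45 in 79-6, 4.85 and 4.37 in DMSO, and 9.72 and 9.62 in fresh cells (log2 intensity, probe set 10345077). The lowest 79-6 array and the highest DMSO array were nearly level, and fresh arrays stood apart. It was 22.6-fold lower in 79-6 and 33.3-fold lower in DMSO than in fresh cells, and it is the gene of the 9 whose replicates at 40 h were furthest apart (SD 0.39 in 79-6 and 0.33 in DMSO). On all 4 arrays at 40 h it was below the lower quartile of the array's genes. With 16 added to each intensity before log2, the difference of DMSO from fresh cells was -4.36 instead of -5.06. The annotation assigns another 2 probe sets to Khdc1a, Khdc1b and Khdc1c together, and these cannot be given to 1 gene. The first (10345079) read 6.43 and 6.09 in 79-6, 6.05 and 5.27 in DMSO, and 10.10 and 10.09 in fresh cells. The second (10345083) read 5.55 and 5.44 in 79-6, 5.42 and 4.90 in DMSO, and 7.73 and 7.27 in fresh cells, so the shared probe sets were also lower at 40 h. Of the 5 other measured genes of this list, Tle6, a partner of egg KH-domain proteins, rose by 0.32 in DMSO against fresh cells (log2, adjusted p = 0.0429), a call lost without either fresh or either DMSO array. No gene of this list was called by limma in 79-6 against DMSO (0 at an unadjusted p under 0.05) or in 79-6 against fresh cells (1 at an unadjusted p under 0.05).

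The genes were not ranked on the difference between 79-6 and DMSO, but the arrays of both groups took part in the choice, which asked for low values after culture against fresh cells. Genes far apart between 79-6 and DMSO, such as Scin, were thereby less likely to be among the 9, and the limma values below are conditioned by that choice. Of the 9 genes 1 rose (Mpzl2) and 1 fell (Fbp1) with 79-6 against DMSO at an adjusted p under 0.05 by limma. Of all genes 4.36% were called (2.38% higher and 1.98% lower), and nothing is read from the 2 of 9 against that share. The other 7 were not called, with adjusted p between 0.1004 (Vwce) and 0.593 (Myl10). In 8 of the 9 both 79-6 arrays lay on the same side of both DMSO arrays, 4 higher (Khdc1a, Mpzl2, Cdh23 and B4galnt2) and 4 lower (Fbp1, Vwce, Capn5 and Uaca), and such separation was seen for 49.0% of all genes (26.8% higher and 22.2% lower). The median difference over the 9 was -0.09 against 0.02 over all genes. For Khdc1a the difference was 0.56 with a 95% interval of 0.08 to 1.04, for B4galnt2 0.39 (0.11 to 0.68) and for Cdh23 0.16 (-0.04 to 0.35). For Vwce it was -0.46 (-0.76 to -0.15), for Uaca -0.29 (-0.54 to -0.04) and for Capn5 -0.24 (-0.43 to -0.04), all log2 intensity. These intervals are not adjusted for the number of genes. Mpzl2 kept its call without either fresh array (adjusted p = 0.0129) but had an adjusted p of 0.120 without DMSO replicate 1, 0.133 without DMSO replicate 2, 0.0616 without 79-6 replicate 1 and 0.110 without 79-6 replicate 2. Fbp1 lost its call without any 1 array: its adjusted p was 0.171 without DMSO replicate 1, 0.165 without DMSO replicate 2, 0.0855 without 79-6 replicate 1, 0.0996 without 79-6 replicate 2 and 0.0695 without either fresh array. Vwce was called lower with 79-6 without either fresh array (adjusted p = 0.0374).

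**Figure D2:**
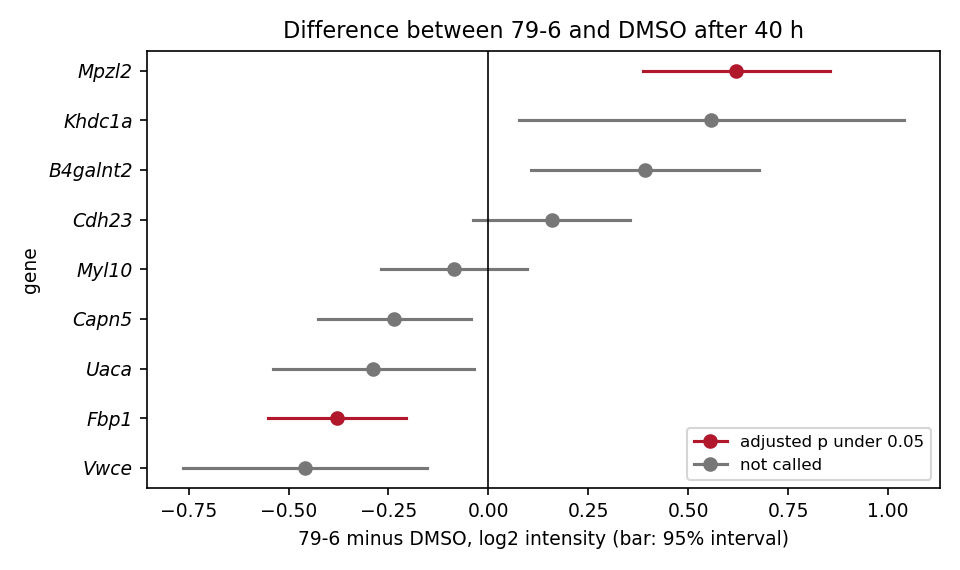
Difference in log2 RMA intensity of 79-6 minus DMSO (x axis) for each of the 9 genes (y axis); points are differences of 2-array means and bars 95% intervals from limma, red for an adjusted p under 0.05. Mpzl2 at 0.62 and Fbp1 at -0.38 are called, and 4 genes lie above 0 and 5 below.

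Over the 9 lists of relatives together, 108 of 119 listed genes were measured. In DMSO against fresh cells 12 rose and 14 fell, with a median difference of 0.03, beside 8.89% called higher and 10.7% called lower of all genes. The counts were 6 and 6 without fresh replicate 1, 10 and 8 without fresh replicate 2, 6 and 8 without DMSO replicate 1, and 8 and 8 without DMSO replicate 2. In 79-6 against DMSO 7 rose and 2 fell (2.38% and 1.98% of all genes). These counts were 3 and 0 without either DMSO array or 79-6 replicate 2, 5 and 0 without 79-6 replicate 1, and 5 and 1 without either fresh array. In 79-6 against fresh cells 19 rose and 13 fell, where 12.0% and 13.9% of all genes did; 13 rises were called without fresh replicate 1. Myl4 was the relative with the largest fall in DMSO, and the median of each of the 8 lists plotted with a chosen gene lay between -0.17 and 0.16 in that comparison.

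**Figure D3:**
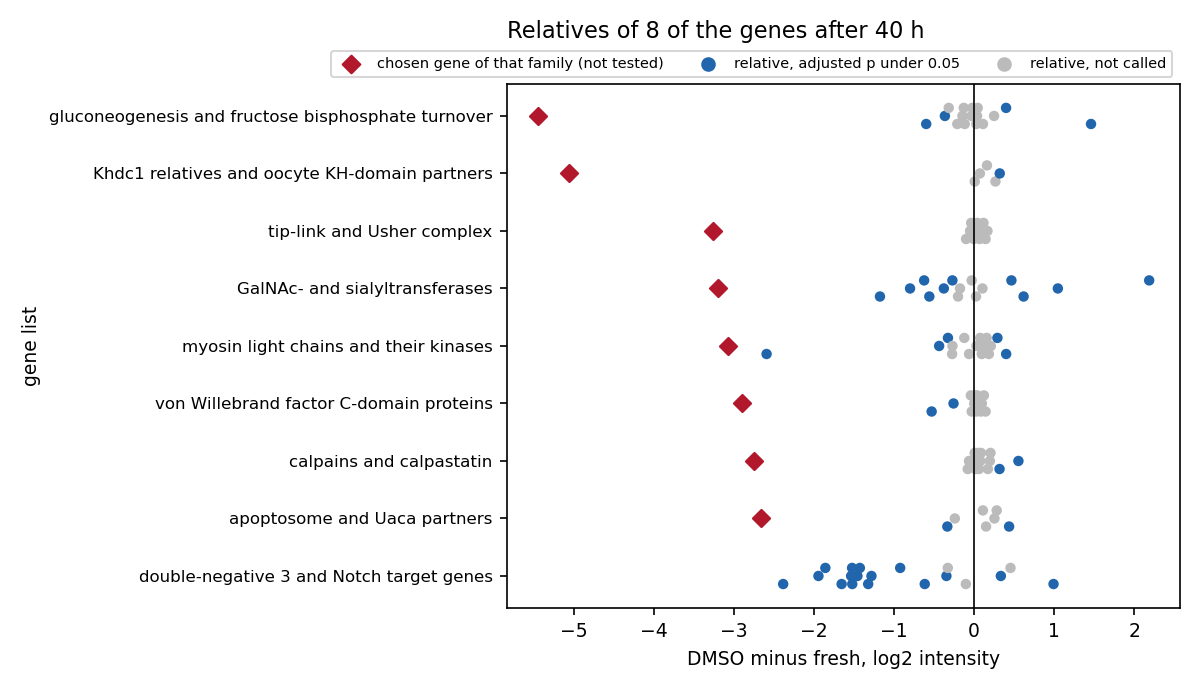
Log2 difference of DMSO minus fresh (x axis) for 8 of the 9 chosen genes (red diamonds) and for their relatives (dots, blue for an adjusted p under 0.05, grey otherwise), 1 list per row; the lowest row holds DN3 and Notch target genes, which have no chosen gene. The chosen genes shown lie between -5.45 and -2.66, and among the relatives of the upper 8 rows Myl4 at -2.59 is the lowest. The chosen genes were picked for large falls, so nothing is read from their distance to the relatives.

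The falls just inside and just outside the range of the 9 genes were close. Uaca, the smallest, had a log2 difference of DMSO from fresh cells of -2.66 and Capn5 -2.75, against -2.59 for Myl4, -2.51 for Olfr1507 and -2.50 for Rxfp1, a relaxin receptor. Genes that are not among the 9 although their difference was larger than that of Uaca were Scin (-3.24), an actin-severing protein, and Alas2 (-2.73), the erythroid enzyme of heme synthesis. Scin read 10.80 and 10.67 in 79-6, 8.07 and 7.67 in DMSO, and 11.08 and 11.15 in fresh cells, and rose with 79-6 against DMSO by 2.87 ± 0.13 (log2 difference, SE; adjusted p = 3.0e-04, limma). In 79-6 against fresh cells the 9 genes held 9 of the 11 largest falls, which their choice for large falls from fresh cells favours, so nothing is read from it. The other two were Xist (-3.60), which rests on 79-6 replicate 1, and Cpa3, a mast cell protease, at -3.04; both were named after their values were seen.

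By distance between log2 values centred on the gene's mean over the 6 arrays, the genes most like Fbp1 were Khdc1a (1.43), Cdh23 (2.89) and Vwce (2.91). They are themselves among the 9, which were chosen for large falls on these same arrays, so nothing is read from that likeness. The genes most like the mean of the 9 were Stc1, a secreted glycoprotein hormone (1.16), Rxfp1 (1.22) and Olfr1507 (1.23). Stc1 read 6.30 and 6.58 in 79-6, 6.61 and 6.92 in DMSO, and 9.45 and 9.01 in fresh cells. The points are 6 arrays in 3 groups.

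Genes of the DN3 stage and Notch targets were lower at 40 h beside the 9 genes. Antibody and culture were not tested apart here either. Of all genes 8.89% were called higher and 10.7% lower in DMSO against fresh cells, and 2.38% and 1.98% in 79-6 against DMSO. In 79-6 against fresh cells these shares were 12.0% and 13.9%. Of 19 measured genes of this list, 14 fell and 2 rose in DMSO against fresh cells, and the median difference was -1.32. The largest falls were those of Erg (-2.38), an early progenitor transcription factor, Il2ra (-1.94), the interleukin 2 receptor alpha chain, and Ptcra (-1.86), the pre-T cell receptor alpha chain. All were smaller than that of Uaca, which the choice of the 9 for the largest falls favours, and nothing is read from it. Against DMSO 4 of the 19 rose with 79-6 and 2 fell, led by Dtx1, a Notch target (1.29), Kit, the stem cell factor receptor (1.06), and Dntt, the terminal transferase (-0.80). Without either DMSO array 2 rises (Dtx1 and Kit) and 0 falls were called, and without either 79-6 array 1 fall. In 79-6 against fresh cells 1 rose and 15 fell, with a median of -0.89, led by Erg (-1.87), Ptcra (-1.81) and Mycn (-1.47), and the rise was lost without fresh replicate 1 or 79-6 replicate 2.

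Markers of other cell types moved with the same comparison, and their part in the falls of the 9 genes was not tested. The shares of all genes called were 8.89% higher and 10.7% lower in DMSO against fresh cells. They were 2.38% and 1.98% in 79-6 against DMSO. Of 16 thymic epithelial genes 14 fell and 0 rose in DMSO against fresh cells by limma (14 and 0 at an unadjusted p under 0.05), led by Cdh1 (-2.34), Tbata (-1.66) and Krt5 (-1.57). Their summed signal was 12.60 and 12.57 in 79-6, 12.22 and 12.77 in DMSO, and 13.86 and 13.90 in fresh cells (log2 of the sum). It was lower at 40 h, and DMSO arrays lay on both sides of the 79-6 arrays. Of 15 genes of macrophages and dendritic cells 8 rose in DMSO against fresh cells, led by Lyz2 (3.88), Cybb (2.41) and Adgre1 (1.63). Their summed signal was 14.86 and 15.05 in 79-6, 14.52 and 14.56 in DMSO, and 12.68 and 13.42 in fresh cells. The 8 became 5 without either DMSO array. With 79-6 against DMSO 2 rose, Itgax (1.14) and C1qa (0.98), and this count was 0 without either DMSO array or 79-6 replicate 2, 1 without 79-6 replicate 1 and 7 without either fresh array. Of 5 erythroid markers Alas2 and Epor (-0.46) fell and Hemgn (0.60) rose. Epor lost its call without fresh replicate 1 or DMSO replicate 2. Of 11 mesenchymal and endothelial markers 3 fell, Pdgfrb (-1.60), Kdr (-0.57) and Cdh5 (-0.55), and 1 rose. Only Pdgfrb was still called lower without DMSO replicate 1, and 2 falls were called in each of the other 5 fits that left out 1 array. Of 9 T-lineage and leukocyte genes 5 rose and 3 fell, led by Cd2 (3.35), Cd3g (-0.68) and Cd7 (0.67), and their summed signal ranged from 15.31 to 15.44. No marker has a defined zero on these arrays.

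**Figure D4:**
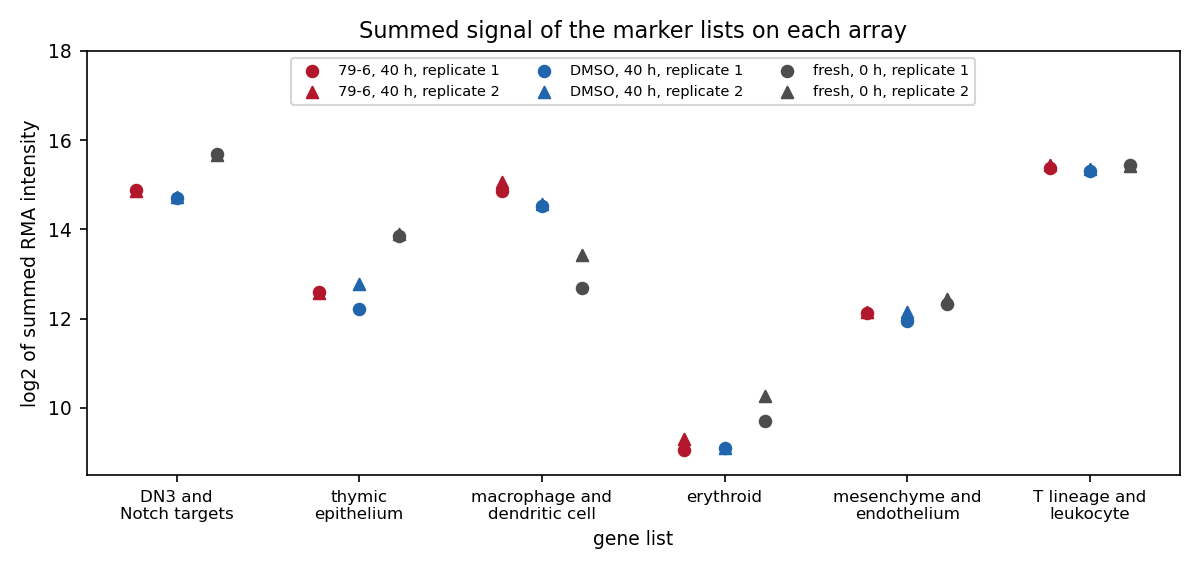
Log2 of the summed RMA intensity (y axis) of 6 gene lists (x axis) on each array; circles are replicate 1, triangles replicate 2, with 79-6 in red, DMSO in blue and fresh in grey from left to right. DN3 and thymic epithelial lists are lower at 40 h than in fresh cells, the macrophage list is higher, and the T-lineage list stays between 15.31 and 15.44. The T-lineage sum adds 5 genes that rose and 3 that fell in DMSO against fresh cells, and does not measure the share of T cells.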

How the data were processed

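Each of 6 RNA samples was hybridised to a mouse array (Affymetrix labelling of whole transcripts, per the labels' protocols), 2 per group. RMA and oligo are named in the submitters' processing notes; no version or genome build is given in the labels or headers used here. The authors deposited RMA intensity values on the linear scale (array medians 99.3 to 103.6), of which log2 was taken before every step. Of 34760 probe sets 21640 carry 1 gene symbol, 1321 several and 11799 none in the platform annotation. For each of 19937 genes the brightest 1-symbol probe set over the 6 arrays was used, and each of the 9 genes has 1. No filter was applied; 7 of the 9 had a mean at or above the median gene.

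A model with a mean for every group was fitted to the 6 arrays (lmFit and eBayes of limma 3.58.1, R 4.3.3), and p-values (two-sided) were adjusted by Benjamini-Hochberg across the 19937 genes, with calls at under 0.05. It had 3 residual and 4.24 prior degrees of freedom and was tested on simulated data. The labels do not say that replicate numbers pair arrays, and the correlations of deviations between equal numbers were 0.0036 (fresh and DMSO), 0.0948 (fresh and 79-6) and -0.0740 (DMSO and 79-6), so no block was used. The 9 genes, the gene lists and the motifs were chosen with earlier results of these data known. Named were the 9 genes, up to 3 called genes with the largest change per list of relatives and comparison, paralogs, the 3 largest changes per marker list, the genes next to the smallest fall and the most alike genes; others are marked where named. The result of 1 list of relatives is not reported here on its own. The summed signal of a list adds linear intensities. The alternatives were a replicate block, median scaling, a filter on low values, the mean of all probe sets, trend and robust variance, log2(value + 16), only the 4 arrays compared, and leaving out each array.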

Additional observations from a re-analysis of the deposited data

How the results depend on the processing

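Each of the 9 genes kept the direction of its difference in all 3 comparisons under each of the 13 alternatives in which it was tested. The falls from fresh cells chose these genes, so nothing is read from their kept direction in the comparisons with fresh cells. Khdc1a and B4galnt2 were not in the fit restricted to genes at or above the median level. With 2 arrays per group, fits that left out 1 array had a lone array in a group that was assumed to vary like the others. For a comparison of 2 groups, leaving out either array of the third group gave the same fit as only the 4 arrays compared. These alternatives are therefore not separate checks. A call lost there depended on what the third group adds to the estimate of the spread. The call of Fbp1 in 79-6 against DMSO was lost with a replicate block (adjusted p = 0.0564, so 0 members were called lower) and with only the 4 arrays compared (0.0695), where Vwce was called (0.0374). The block changed no other member's call, and replicate numbers are not known to pair arrays. Members called in 79-6 against DMSO ranged from 0 to 1 higher and 0 to 1 lower when 1 array was left out. Their median difference there was -0.24 for genes at or above the median level, where that of DMSO minus fresh was -3.07. With log2(value + 16) the medians were -2.92 for DMSO minus fresh and -2.99 for 79-6 minus fresh, and with 1 array left out they ranged from -3.23 to -3.09 and from -3.11 to -3.02, and that of 79-6 minus DMSO from -0.14 to -0.03.

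Among all genes 475 were called higher and 394 lower with 79-6 against DMSO. With trend and robust variance these were 811 and 912 (relatives 14 and 4), for genes at or above the median level 857 lower (relatives 14 and 5), with log2(value + 16) 633 lower (relatives 12 higher), and with only the 4 arrays compared 225 lower (relatives 1 lower). With 1 array left out they ranged from 70 to 406 higher and from 18 to 323 lower, and relatives from 3 to 5 higher and from 0 to 1 lower. In DMSO against fresh cells the 1773 higher and 2129 lower calls ranged from 921 to 1886 and from 1204 to 2184, and relatives from 6 to 12 higher and from 6 to 13 lower. In 79-6 against fresh cells the 2401 higher and 2773 lower calls ranged from 1349 to 2542 and from 1732 to 2552. With arrays set to 1 median, DMSO against fresh cells gave 2155 higher and 1822 lower calls, the opposite order to that without scaling, and 79-6 against fresh cells 2978 and 2504. The causes were not tested. No detection calls were used, so what signal over background limits could not be measured.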
